A study of Mus musculus with 15 samples.

Results

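Mast cells and basophils were followed in the lungs of mice that had received rod-like carbon nanotubes (rCNT), a fibre-shaped particle, through 10 of their genes. These are the granule proteases Mcpt1, Mcpt2, Mcpt4, Cma1, Mcpt8, Tpsb2, Tpsab1 and Cpa3, and Fcer1a and Ms4a2, which encode chains of the high-affinity receptor for immunoglobulin E. Members were found on the array through the RefSeq accession of each probe. This matched 10 probes of 9 of the 10 genes, among 20972 gene symbols with a probe, and no probe matched Tpsab1, a tryptase gene that the RefSeq table lists as a transcribed pseudogene. Only 4 members, Mcpt2, Mcpt4, Tpsb2 and Cpa3, passed the filter on dim probes and entered the test over 25251 genes or unnamed transcripts.

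Mast cells are tissue-resident cells that store proteases in granules and release them when antigen crosslinks immunoglobulin E on their surface. In the mouse, connective tissue mast cells around airways and vessels contain the chymases encoded by Mcpt4 and Cma1, the tryptase encoded by Tpsb2 and the carboxypeptidase encoded by Cpa3, while mucosal mast cells in inflamed epithelium contain the chymases of Mcpt1 and Mcpt2. Basophils circulate, carry the same receptor and make the protease of Mcpt8. In whole lung RNA a smaller number of such cells and less RNA per cell cannot be told apart.

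RNA of lungs from female C57BL/6 mice aged 7 to 8 weeks was hybridised to 2-colour Agilent arrays. The groups were aspirated rCNT (4 samples, a daily 10 µg carried in 50 µl of phosphate-buffered saline, for 4 days), the same volume of saline alone (PBS, 4 samples), inhaled rCNT (3 samples, an aerosol of 6.2 to 8.2 mg per cubic metre for 4 h per day on 4 days) and untreated mice (4 samples). In aspiration the mouse draws liquid from the pharynx into its airways, and lungs were collected 24 h after the last exposure. Whether a sample came from 1 mouse or several is not given in the labels, and p-values therefore reflect only how these samples vary, which may be technical variation.

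Slide 1 carried the 8 samples of the aspiration groups, while slides 2 and 3 each carried both inhaled rCNT and untreated samples. Slide 2 held only replicate 1 of the inhaled rCNT samples, and slide 3 only replicate 4 of the untreated samples. Comparisons within a slide are therefore given as effect sizes only. Untreated replicate 1 has a title that names PBS aspiration while its other labels name no treatment, and results on untreated samples are therefore also given without it. Between 54.57% and 64.71% of spots were well above background, and no spot was saturated. Each of the 10 marker genes of lung itself was well above background in at least 1 sample of each group. Their mean level was 15.24 to 15.75 on the log2 scale over the samples. By contrast the mast cell and basophil members were dim. Levels below are log2 intensities, background-corrected and normalised over the 15 samples. The dimmest signal called well above background lay between 6.03 and 6.40, depending on the sample, and 8 of the 9 members had no group mean above 7. Near that limit the background correction compresses differences, so that a log2 fold change of a dim member understates the change in brightness.

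Mcpt4 was well above background in all 15 samples, as was the brighter of the Tpsb2 probes. Cpa3 was well above background in 3 of 4 aspirated rCNT, 4 of 4 PBS, 0 of 3 inhaled rCNT and 3 of 4 untreated samples. Mcpt2 was well above background in 4, 2, 2 and 0 samples of these groups, so it passed the filter only through the aspirated rCNT group. Cma1 was well above background in 2 aspirated rCNT, 2 PBS, 0 inhaled rCNT and 2 untreated samples, and the dimmer Tpsb2 probe in 1, 3, 0 and 0. Mcpt1 and Mcpt8 were each well above background in 2 aspirated rCNT samples and in no other sample. Fcer1a was so in 1 aspirated rCNT and 1 untreated sample, and Ms4a2 in none.

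The chymase genes sit side by side on chromosome 14, where the protein-coding order is Cma1, Cma2, Mcpt1, Mcpt2, Mcpt9, Mcpt4, Mcpt8 and then Ctsg, the cathepsin G gene. Cpa3 lies on chromosome 3, Tpsb2 on chromosome 17, Fcer1a on chromosome 1 and Ms4a2 on chromosome 19. Promoters are shown for 2 pairs of members, as 300 bases around the annotated start (250 before and 50 after it) from RefSeq for GRCm38.p6. Cpa3 and Cma1 are shown because both were lower after inhalation. Mcpt1 and Mcpt4 are shown as a contrast, because their promoters are similar while Mcpt1 was higher after aspiration and Mcpt4 did not pass the test there. Capitals mark the letters GATAA, the core recognised by GATA factors such as GATA2, or TTATC where it lies on the opposite strand. The Cpa3 window is chr3:20242132-20242431, that of Cma1 is chr14:55944626-55944925, that of Mcpt1 is chr14:56017714-56018013 and that of Mcpt4 is chr14:56062261-56062560. The Mcpt1 window is on the plus strand and the others are on the minus strand.
Cpa3: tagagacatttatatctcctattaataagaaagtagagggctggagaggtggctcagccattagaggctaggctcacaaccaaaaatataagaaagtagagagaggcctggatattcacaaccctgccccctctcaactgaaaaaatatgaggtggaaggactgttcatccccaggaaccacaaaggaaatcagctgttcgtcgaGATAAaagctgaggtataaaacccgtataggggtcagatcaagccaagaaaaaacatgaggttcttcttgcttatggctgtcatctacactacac
Cma1: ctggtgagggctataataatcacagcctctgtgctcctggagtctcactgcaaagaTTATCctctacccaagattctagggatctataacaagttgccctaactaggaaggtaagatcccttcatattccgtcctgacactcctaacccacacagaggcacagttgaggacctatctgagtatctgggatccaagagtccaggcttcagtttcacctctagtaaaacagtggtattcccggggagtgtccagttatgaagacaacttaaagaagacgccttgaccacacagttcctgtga
Mcpt1: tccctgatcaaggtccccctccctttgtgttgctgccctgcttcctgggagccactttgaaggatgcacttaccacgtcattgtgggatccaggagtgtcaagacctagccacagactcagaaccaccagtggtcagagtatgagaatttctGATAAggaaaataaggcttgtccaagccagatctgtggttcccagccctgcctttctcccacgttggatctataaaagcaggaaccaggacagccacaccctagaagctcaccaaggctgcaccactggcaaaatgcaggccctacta
Mcpt4: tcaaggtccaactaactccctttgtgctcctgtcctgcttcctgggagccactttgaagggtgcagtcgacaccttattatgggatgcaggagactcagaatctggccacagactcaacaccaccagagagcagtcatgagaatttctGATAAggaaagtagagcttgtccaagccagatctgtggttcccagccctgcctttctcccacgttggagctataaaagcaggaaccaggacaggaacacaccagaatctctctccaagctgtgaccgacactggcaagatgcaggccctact
The Mcpt1 and Mcpt4 windows were 81.4% identical, and each held GATAA at nearly the same distance from the start, with its first base 98 and 102 bases upstream. In Cpa3 it began 45 bases upstream and in Cma1 194 bases upstream. RefSeq gave a promoter for 7 members, of which 6 held GATAA on either strand, against 25.4% of 32851 promoters of the same length, and Mcpt8 held none. The E-box letters CANNTG were present in 72.3% of those promoters. Among the windows shown, Cpa3 held 2 and Cma1 held 1, while Mcpt1 and Mcpt4 held 0. These matches describe the letters only, and any overlap between the motifs was not removed.

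**Figure D1:**
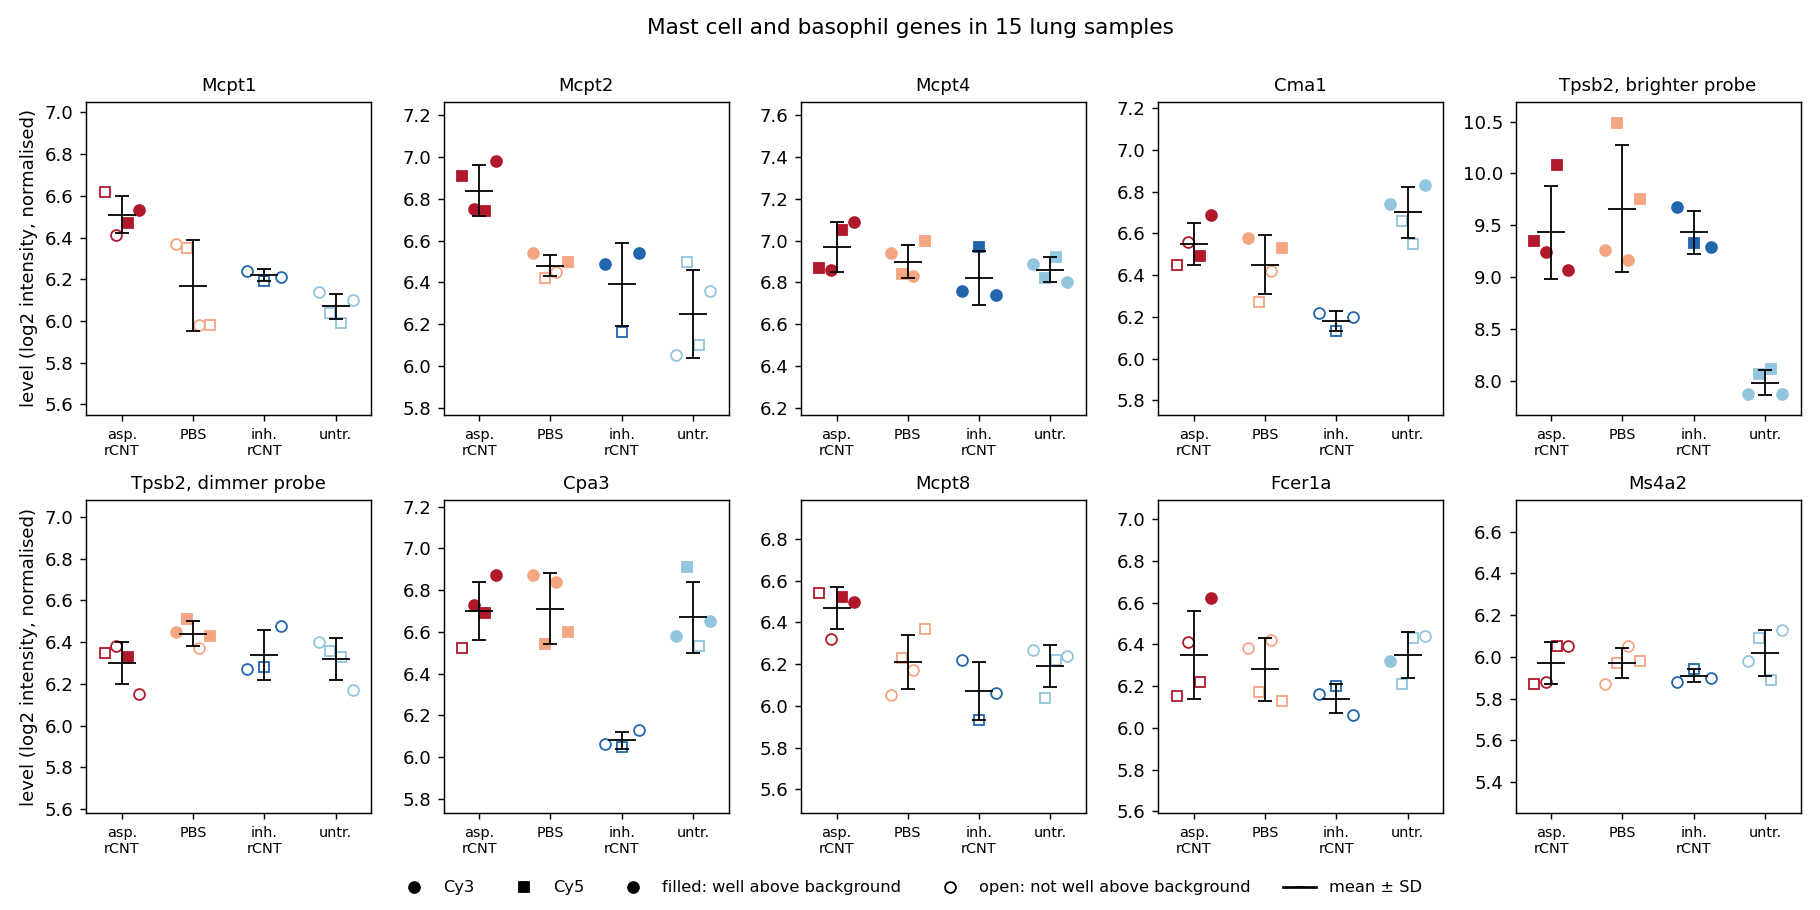
Log2 level of each member probe in the 15 samples, by group (asp. rCNT, aspirated rCNT; inh. rCNT, inhaled rCNT; untr., untreated), with circles for Cy3 and squares for Cy5, filled where the spot was well above background, and bars for mean and SD. The brighter Tpsb2 probe is low only in untreated samples, Cpa3 and Cma1 are lowest in the 3 inhaled rCNT samples, and Mcpt1 and Mcpt2 are highest in aspirated rCNT samples; vertical scales differ between panels.

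The first comparison set aspirated rCNT against aspirated PBS. The chymase genes of mucosal mast cells were slightly higher, and Mcpt8 was near the limit of detection and slightly higher. Mcpt4, Cma1, Tpsb2 and Cpa3 did not pass the test. Of the 4 members tested, 1 passed and was higher and 0 were lower, against 47.2% of all genes tested that passed in either direction, 20.7% as higher and 26.4% as lower. The 1 that passed was Mcpt2, which entered the test only through the group where it was high, so this count is a description and supports nothing. The other 3 did not pass.

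Mcpt2 had levels of 6.91, 6.75, 6.74 and 6.98 in the aspirated rCNT samples, against 6.54, 6.42, 6.45 and 6.50 in the PBS samples. All 4 aspirated rCNT samples lay above all 4 PBS samples, which was the case for 19.2% of all genes tested. Its log2 fold change was 0.37 ± 0.10 (SE), with a limma adjusted p of 0.00952 in the fit over all 55681 probes, where no filter selected it, and of 0.00752 after the filter. Within Cy3 it was 0.37 (adjusted p = 0.0568) and within Cy5 it was 0.37 (adjusted p = 0.0616), each with 2 samples a group.

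Mcpt1, the other mucosal chymase gene, did not pass the filter, and its values come from the same fit over all probes. Its levels were 6.62, 6.41, 6.47 and 6.53 in aspirated rCNT samples, against 6.37, 6.35, 5.98 and 5.98 in PBS samples. The groups did not overlap, and no PBS sample was well above background. The difference was 0.33 ± 0.09 on the log2 scale (limma adjusted p = 0.00774 over all probes), with a 95% interval of 0.14 to 0.53. A floor-limited ratio was also taken between the group means. In it, samples of the dimmer group are raised to the lowest signal that counted as well above background. It was 1.18-fold, takes no account of spread, and only 2 of 4 aspirated rCNT samples were well above background. Within Cy3 the difference was 0.29 (adjusted p = 0.164) and within Cy5 it was 0.38 (adjusted p = 0.0701).

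Mcpt8, the basophil protease gene, read 6.54, 6.32, 6.52 and 6.50 in aspirated rCNT samples, against 6.05, 6.23, 6.17 and 6.37 in PBS samples. The highest PBS sample lay above the lowest aspirated rCNT sample. The log2 fold change was 0.26 ± 0.08 (limma adjusted p = 0.0241 over all probes), with a 95% interval of 0.08 to 0.45. Its floor-limited ratio was 1.15-fold, with only 2 of 4 aspirated rCNT samples well above background. The call rests on single samples: without aspirated rCNT replicate 1, 3 or 4 the adjusted p was 0.0702, 0.0648 or 0.0655, and without PBS replicate 1 or 3 it was 0.104 or 0.0637. Within Cy3 the difference was 0.31 (adjusted p = 0.0478) and within Cy5 it was 0.22 (adjusted p = 0.168).

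The chymase genes Mcpt4 and Cma1 and the carboxypeptidase gene Cpa3 overlapped with their controls after aspiration and did not pass the test. Mcpt4 averaged 6.97 ± 0.12 in aspirated rCNT and 6.90 ± 0.08 in PBS samples (SD, n = 4 each), a log2 fold change of 0.06 with a 95% interval of -0.10 to 0.23 and a limma adjusted p of 0.495. Cpa3 read 6.52, 6.73, 6.69 and 6.87 in aspirated rCNT samples, against 6.87, 6.54, 6.84 and 6.60 in PBS samples. Its difference was -0.01 ± 0.09 (limma adjusted p = 0.94), with an interval of -0.21 to 0.19. Cma1 averaged 6.55 ± 0.10 in aspirated rCNT and 6.45 ± 0.14 in PBS samples (SD, n = 4 each), and the log2 fold change of 0.10 did not pass (limma adjusted p = 0.368 over all probes).

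The tryptase gene Tpsb2 had the widest spread between replicates. Its brighter probe read 9.35, 9.24, 10.08 and 9.07 in aspirated rCNT samples, against 9.26, 10.49, 9.16 and 9.75 in PBS samples. The ranges overlapped almost fully, and the log2 fold change was -0.23 ± 0.20 (limma adjusted p = 0.362), with an interval of -0.67 to 0.21. Part of the spread went with the dye on slide 1, where Cy3 and Cy5 samples averaged 9.15 and 9.71 in aspirated rCNT lungs, and 9.21 and 10.12 in PBS lungs. The Cy3 and Cy5 means were 9.48 and 9.33 in inhaled rCNT lungs, the other way round, and 7.87 and 8.08 in untreated lungs. The single dye term fitted over all groups was 0.43 for this probe (Cy5 minus Cy3), against -0.16 to 0.05 for the other member probes.

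The receptor genes were near the limit of detection. Fcer1a, the chain that binds immunoglobulin E, averaged 6.35 ± 0.21 in aspirated rCNT and 6.28 ± 0.15 in PBS samples (SD, n = 4 each), with a difference of 0.07 (limma adjusted p = 0.621 over all probes). Ms4a2, the signalling beta chain, averaged 5.97 ± 0.10 in aspirated rCNT and 5.97 ± 0.07 in PBS samples (SD, n = 4 each). Neither passed the test in this comparison.

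The second comparison set inhaled rCNT against untreated mice. The carboxypeptidase gene Cpa3 and the chymase gene Cma1 were lower in each inhaled rCNT sample than in any untreated sample, and neither was well above background after inhalation. Tpsb2 was higher by its brighter probe only. Of the 4 members tested, 1 was higher (Tpsb2) and 1 was lower (Cpa3), against 60.9% of all genes tested that passed in either direction, 28.4% as higher and 32.5% as lower.

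Cpa3 read 6.06, 6.05 and 6.13 in inhaled rCNT samples, against 6.58, 6.91, 6.53 and 6.65 in untreated samples. The groups did not overlap, which held in this direction for 29.2% of all genes tested. Before normalisation the spot stood 5, 0 and 4 brightness units over its local background in inhaled rCNT samples, against 26, 46, 20 and 20 units in untreated samples. The log2 fold change was -0.61 ± 0.10 (limma adjusted p = 6.71e-05), with a 95% interval of -0.83 to -0.39. The floor-limited ratio of untreated to inhaled rCNT samples was 1.38-fold. Within slide 2 the log2 fold change was -0.70 and within slide 3 it was -0.49, each resting on a lone inhaled rCNT or untreated sample. Without untreated replicate 1 it was -0.66 (adjusted p = 7.05e-05).

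Cma1 read 6.22, 6.13 and 6.20 in inhaled rCNT samples, against 6.74, 6.66, 6.55 and 6.83 in untreated samples. The 3 inhaled rCNT samples again lay below all others of this comparison. The difference was -0.54 ± 0.07 (limma adjusted p = 1.08e-05 over all probes), with a 95% interval of -0.70 to -0.37. The floor-limited ratio of untreated to inhaled rCNT samples was 1.38-fold. Within slide 2 the difference was -0.51 and within slide 3 it was -0.61, each again resting on a lone sample of a group. Without untreated replicate 1 it was -0.55 (adjusted p = 4.25e-05).

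Mcpt4, the chymase gene that lies near Cma1 and is made by the same kind of mast cell, did not follow it. It read 6.76, 6.97 and 6.74 in inhaled rCNT samples, against 6.89, 6.82, 6.92 and 6.80 in untreated samples. The difference was -0.02 ± 0.08 (limma adjusted p = 0.815), with an interval of -0.20 to 0.15 that does not reach the fitted change of Cma1 or Cpa3.

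The brighter Tpsb2 probe read 9.68, 9.33 and 9.29 in inhaled rCNT samples, against 7.87, 8.06, 8.11 and 7.87 in untreated samples. It was 2.88-fold higher in inhaled rCNT samples with no overlap, a log2 fold change of 1.53 ± 0.22 (limma adjusted p = 1.64e-05), and non-overlap in this direction held for 25.7% of all genes tested. Within slide 2 the change was 2.01 and within slide 3 it was 1.19, each resting on a lone sample of a group. Without untreated replicate 1 it was 1.57 (adjusted p = 5.64e-05). The dimmer probe of the same accession read 6.27, 6.28 and 6.48 in inhaled rCNT samples, against 6.40, 6.36, 6.33 and 6.17 in untreated samples. Its log2 fold change was 0.03 ± 0.08 (limma adjusted p = 0.801 over all probes). The probes therefore disagree, and with the mean of both in place of the brighter one the log2 fold change was 0.78.

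The brighter Tpsb2 probe moved over the groups with abundant nuclear RNAs, and their part in its result was not tested. Neat1, a long non-coding RNA of nuclear paraspeckles, averaged 15.65 ± 0.35 in inhaled rCNT (n = 3) and 11.56 ± 0.26 in untreated samples (SD, n = 4). Malat1, another nuclear RNA, averaged 11.69 ± 0.12 in inhaled rCNT (n = 3) and 9.23 ± 0.39 in untreated samples (SD, n = 4). Both were also high in the aspiration groups, with means of 15.02 in aspirated rCNT and 15.65 in PBS samples for Neat1, and of 11.35 in aspirated rCNT and 11.41 in PBS samples for Malat1.

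The remaining members did not pass after inhalation. Mcpt2 averaged 6.39 ± 0.20 in inhaled rCNT (n = 3) and 6.25 ± 0.21 in untreated samples (SD, n = 4), a difference of 0.13 (limma adjusted p = 0.315). Mcpt1 was at 6.19 to 6.24 in inhaled rCNT and 5.99 to 6.14 in untreated samples, and Mcpt8 at 5.93 to 6.22 in inhaled rCNT and 6.04 to 6.27 in untreated samples, with adjusted p values of 0.279 and 0.351 over all probes. Fcer1a was at 6.06 to 6.20 in inhaled rCNT and 6.21 to 6.44 in untreated samples. Neither Fcer1a, which was lower, nor Mcpt1, which was higher, overlapped between the groups. Non-overlap held for 29.2% of all genes tested as lower and 25.7% as higher, a set that did not include these members. The Fcer1a difference of -0.23 ± 0.09 lay just outside the threshold (limma adjusted p = 0.0516 over all probes). Without untreated replicate 1 it was -0.28 (adjusted p = 0.0329), and without inhaled rCNT replicate 2 it was -0.35 (adjusted p = 0.00953).

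**Figure D2:**
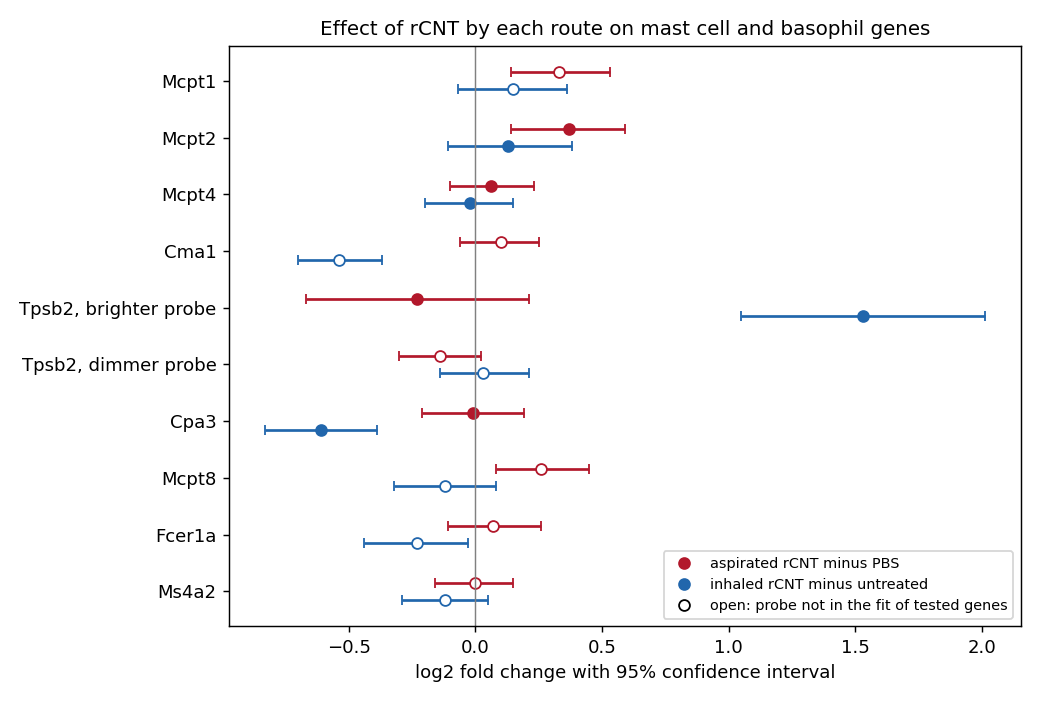
Log2 fold change with its 95% interval for each member probe, in red for aspirated rCNT minus PBS and in blue for inhaled rCNT minus untreated, with open symbols for probes outside the fit of tested genes. The intervals of Cpa3, Cma1, Fcer1a and the brighter Tpsb2 probe exclude 0 after inhalation and include it after aspiration. Of these, Fcer1a did not pass after adjustment. The intervals of Mcpt1, Mcpt2 and Mcpt8 exclude 0 after aspiration.

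The routes were compared through the difference of the effects, aspirated rCNT minus PBS less inhaled rCNT minus untreated, which also contains any difference between PBS and untreated samples. Of the 4 members tested 2 passed, against 57% of all genes tested in either direction (28.6% positive and 28.5% negative). Cpa3 differed by 0.60 ± 0.13 (limma adjusted p = 0.00129) and Cma1 by 0.63 ± 0.10 (limma adjusted p = 6.06e-05 over all probes). Tpsb2 differed by -1.76 ± 0.29 at its brighter probe (limma adjusted p = 9.57e-05). Its dimmer probe gave -0.17 ± 0.11 and did not pass (limma adjusted p = 0.265 over all probes). Mcpt8 differed by 0.39 ± 0.12 (limma adjusted p = 0.0205 over all probes), although it was well above background in only 2 samples, both of aspirated rCNT, and its response to aspiration did not hold without single samples. The Cpa3 and Cma1 values rest on an inhaled rCNT group in which 0 of 3 samples were well above background, so their exact size is not measured. For Mcpt2 the difference of the effects was 0.23 ± 0.15 (limma adjusted p = 0.199) and for Mcpt1 it was 0.19 ± 0.13 (limma adjusted p = 0.322 over all probes), so the response of the mucosal chymase genes was not shown to differ between routes.

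**Figure D3:**
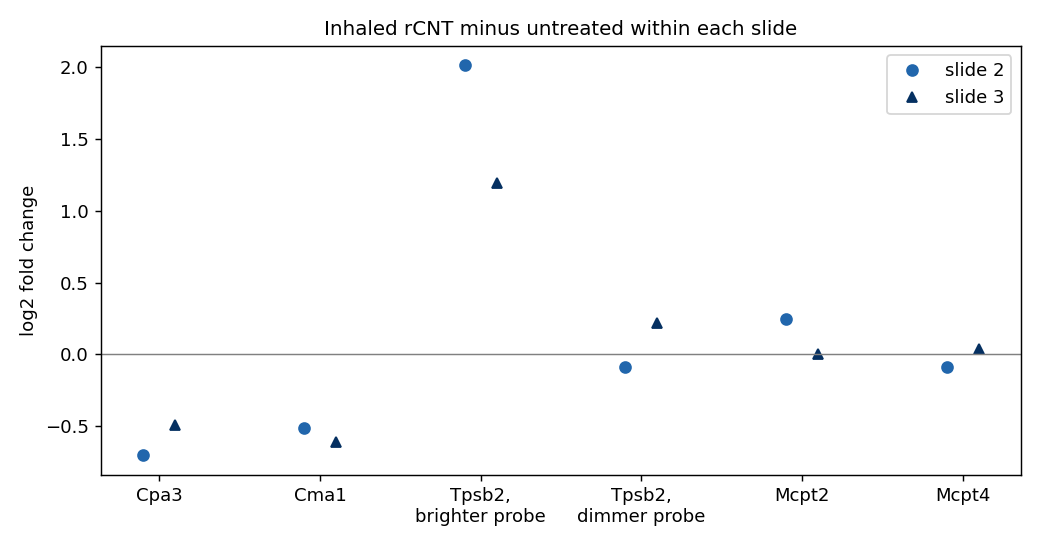
Log2 fold change of inhaled rCNT minus untreated for 6 member probes, computed within slide 2 (circles) and within slide 3 (triangles). Slide 2 held a lone inhaled rCNT sample and slide 3 a lone untreated sample. Cpa3 and Cma1 lie below 0 and the brighter Tpsb2 probe lies above 0 on both slides, while the dimmer Tpsb2 probe and Mcpt4 lie on opposite sides of 0.

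The order of the levels over the 4 groups differed by member. Slide and group cannot be told apart where the routes are set against each other, and these comparisons share samples with those above. For Cpa3 the means were 6.70 in aspirated rCNT, 6.71 in PBS, 6.08 in inhaled rCNT and 6.67 in untreated samples. The 3 neighbouring levels other than inhaled rCNT did not differ beyond their spread, with a PBS minus untreated difference of 0.04 (limma adjusted p = 0.702). Cpa3 was lower in inhaled rCNT than in PBS samples by -0.65 ± 0.10 (limma adjusted p = 5.17e-05), and it was the 1 of 4 members tested that passed there, against 55.2% of all genes tested in either direction and 27.6% as lower.

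For the brighter Tpsb2 probe the exposed groups and PBS were alike in mean, at 9.43 in aspirated rCNT, 9.66 in PBS and 9.43 in inhaled rCNT samples, while untreated samples averaged 7.98. PBS samples exceeded untreated samples by 1.69 ± 0.20 (limma adjusted p = 2.91e-06), and Tpsb2 was the 1 of 4 members tested that passed in that comparison, against 59.4% of all genes tested in either direction and 26.3% as higher. Inhaled rCNT minus PBS was -0.16 (limma adjusted p = 0.55, interval -0.64 to 0.32). Cma1 averaged 6.55 in aspirated rCNT, 6.45 in PBS, 6.18 in inhaled rCNT and 6.70 in untreated samples, and its PBS minus untreated difference was -0.24 (limma adjusted p = 0.00815 over all probes).

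For Mcpt2 the order was aspirated rCNT (6.84), PBS (6.48), inhaled rCNT (6.39) and untreated (6.25). Aspirated rCNT samples lay above inhaled rCNT samples by 0.46 (limma adjusted p = 0.00222 over all probes). Of the 4 members tested 2 were higher in this comparison, Mcpt2 and Cpa3, against 61.4% of all genes tested in either direction and 28% as higher, and Mcpt2 is again a member selected through the group where it was high. Neighbours below the top did not pass, with a PBS minus untreated difference of 0.23 (limma adjusted p = 0.0664). Mcpt4 means spanned 6.82 to 6.97, and none of the group comparisons run passed for it.

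Across the 15 samples the members did not vary as 1 group. Over log2 levels with the dye term removed, Pearson's r was 0.76 between Cpa3 and Cma1 and 0.74 between Mcpt1 and Mcpt2, but -0.23 between the brighter Tpsb2 probe and Cpa3 and 0.33 between the Tpsb2 probes. The points share slides, groups and dyes, so these values describe the samples only. The genes most like Cpa3 among 15829 were H1f0 (0.965), Spg20 (0.947) and Adgre4 (0.946), and those most like Mcpt2 were Htr2a (0.933), Pspc1 (0.923) and Ctc1 (0.92). H1f0, which encodes a linker histone, averaged 6.96 in inhaled rCNT samples and 8.10 in untreated samples. Htr2a, a serotonin receptor gene, averaged 7.23 in aspirated rCNT and 6.83 in PBS samples. The brighter Tpsb2 probe was most like Rnase10 (0.987), Kdm7a (0.979) and Golga1 (0.968), and its r was 0.92 with Neat1 and 0.90 with Malat1. Mcpt4 had no close match: the highest values were 0.796 for Mphosph6, 0.787 for Fam122b and 0.783 for Il1f9.

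Other genes of mast cells, basophils and their signalling were counted in the same way, and many of them are also expressed by other lung cells. The controls of the routes already differed, though slide and group cannot be told apart there. In PBS minus untreated 3 of 15 other mast cell genes were higher and 8 lower (median -0.27), and 4 of 13 other basophil genes were higher and 3 lower (median -0.04). The median over all genes tested was -0.041. Of all genes tested 59.4% passed there in either direction, 26.3% as higher and the rest of these as lower. In the difference of the effects 9 of the 15 mast cell genes passed as positive and 3 as negative, against 28.6% and 28.5% of all genes tested. After aspiration, 7 of 15 other mast cell genes tested rose and 3 fell, with a median log2 fold change of 0.18 against -0.043 over all genes tested, of which 20.7% were higher and 26.4% lower. Adora3, an adenosine receptor gene, rose by 2.18 ± 0.11, Il1rl1, the receptor for interleukin 33, by 1.58 ± 0.13, and Srgn, the core protein of granule proteoglycans, by 1.02 ± 0.10. The 3 that fell, named after their values were seen, were Gata2, a transcription factor of mast cells (-1.06 ± 0.11), Kit, the receptor for stem cell factor (-0.68 ± 0.10), and Ltc4s, the leukotriene C4 synthase gene (-0.66 ± 0.08). Other probes of Il1rl1 rose less, by 0.79 and 0.52. For the genes named here as changed, limma's adjusted p lay below the threshold over all genes tested.

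Of the 13 other basophil genes tested 8 rose and 2 fell after aspiration, with a median of 0.78, against 20.7% higher and 26.4% lower of all genes tested. Il13 and Grm6 were well above background in 4 aspirated rCNT and 0 PBS samples. They entered the test only through the group where they were high, so this count is a description and supports nothing. The 2 that fell, named after their values were seen, were Cebpa (-0.30) and Itgam (-0.36), while the other probes of Itgam changed by 1.11 and 0.10. Without aspirated rCNT replicate 1 or PBS replicate 3 only 1 fell. Il4, the interleukin 4 gene, averaged 8.95 ± 0.31 in aspirated rCNT and 6.70 ± 0.12 in PBS samples (SD, n = 4 each). Il6 rose by 2.88 ± 0.17. Grm6, a glutamate receptor gene, was well above background only in aspirated rCNT samples, with a floor-limited ratio to PBS of 4.23-fold. Prss34, a serine protease gene of basophils and mast cells, averaged 6.35 in aspirated rCNT and 6.37 in PBS samples, near background like Mcpt8. The 9 eosinophil genes tested moved with these counts, with 6 higher and 0 lower. Their mean level lay between 10.70 and 11.05 in aspirated rCNT samples and between 9.57 and 9.61 in PBS samples, and their part in the result was not tested.

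In the signalling chain of the immunoglobulin E receptor 10 of 16 genes tested rose and 1 fell after aspiration (median 0.48). Of all genes tested 20.7% were higher and 26.4% lower there. Fcer1g, the gamma chain shared with other Fc receptors, rose by 1.02 ± 0.13, and the adaptors Lat2 and Lcp2 rose by 1.01 ± 0.11 and 0.56 ± 0.07. After inhalation 0 rose and 8 fell, with a median of -0.31 against -0.02 over all genes tested. There 28.4% of all genes tested were higher and 32.5% lower. The kinases Lyn and Fyn changed by -0.72 ± 0.07 and -0.56 ± 0.09. Leaving out 1 sample at a time moved the count of falls between 8 and 11, and 1 gene rose without PBS replicate 4 or without untreated replicate 2, 3 or 4. In the same comparison 9 of 9 NK and cytotoxic T cell genes fell, and their part in this count was not tested.

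After inhalation 1 of 15 other mast cell genes rose and 4 fell (median -0.03), against 28.4% higher and 32.5% lower of all genes tested. Il1rl1 rose by 0.89 ± 0.15 at its brightest probe, with 0.18 and 0.10 at its other probes. Slc18a2, the monoamine transporter that loads granules, and Srgn each changed by -0.68. The other 2 that fell, named after their values were seen, were Rab27b (-0.85 ± 0.15) and Ndst2 (-0.31 ± 0.07). A second probe of Slc18a2 changed by 0.12. Kit (-0.24, limma adjusted p = 0.0652) and Gata2 (0.06, limma adjusted p = 0.694) did not pass after inhalation. Of 13 other basophil genes 5 rose and 5 fell (median -0.02), with Itgam at 0.82 ± 0.09, Cd63 at 0.53 ± 0.07 and Ptgdr2, a prostaglandin D2 receptor gene, at -0.83 ± 0.10. The other probes of Itgam changed by 0.01 and -0.09. Without untreated replicate 1 the basophil counts were 3 higher and 4 lower, and the mast cell counts 1 higher and 5 lower. Without inhaled rCNT replicate 2 also 3 basophil genes were higher, and without aspirated rCNT replicate 4 the mast cell count was 2 higher.

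Beyond the chymases at the same locus on chromosome 14, only Cma2 and Gzmb of 10 other granule protease genes passed the filter. Gzmb, the granzyme B gene of NK and cytotoxic T cells, averaged 6.91 ± 0.16 in inhaled rCNT (n = 3) and 8.59 ± 0.30 in untreated samples (SD, n = 4), a log2 fold change of -1.68 ± 0.12 (limma adjusted p = 1.88e-08). Cma2 changed by -0.07 (limma adjusted p = 0.567). The falls of Cpa3 and Cma1 after inhalation thus stood beside a fall of lymphocyte genes: 9 of 9 NK and cytotoxic T cell genes tested fell (median -1), among them Gzma by -2.22 ± 0.23 and Eomes, a transcription factor, by -1.04 ± 0.11. The mean level of that list was 7.88 to 8.16 in inhaled rCNT samples and 8.77 to 9.60 in untreated samples, with none of the 9 below background throughout a group, and its part in the result was not tested. Of all genes tested 28.4% were higher and 32.5% lower after inhalation. Of the tissue lists, mesothelium and pleura had 2 higher and 5 lower of 8 (median -0.58), and thymus and lymph node 1 higher and 5 lower of 7 (median -0.83). Smooth muscle genes, which mark the airway walls, gave 2 higher and 2 lower of 10 and airway cartilage genes 1 higher and 1 lower of 6. The part of these tissues in the result was not tested.

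Of 11 growth factor and cytokine genes 5 rose and 3 fell after aspiration, and 4 rose and 5 fell after inhalation. Of all genes tested 20.7% were higher and 26.4% lower after aspiration, and 28.4% higher and 32.5% lower after inhalation. Il33, an epithelial alarmin that activates mast cells, rose by 2.28 ± 0.15 after aspiration, Il5, the eosinophil growth factor gene, by 1.02 ± 0.10, and Il18 changed by -1.38 ± 0.09. After inhalation Kitl, the stem cell factor on which mast cells depend, rose by 0.99 ± 0.09, while Cxcl12 changed by -1.34 ± 0.13 and Il18 by -1.06 ± 0.10. A second Cxcl12 probe changed by 0.15 after inhalation. Of 9 protease inhibitor genes 4 rose and 2 fell after aspiration, with Timp1 at 3.21 ± 0.12, Serpina3n at 2.33 ± 0.09 and Slpi, the secretory leukocyte protease inhibitor, at 0.57 ± 0.08. Without aspirated rCNT replicate 2 or 3, or PBS replicate 1 or 3, only 1 fell. After inhalation 4 rose and 4 fell (2 without inhaled rCNT replicate 1), with Timp1 at 1.71 ± 0.13, Serpinb1a at -1.08 ± 0.10 and Cst3 at -0.63 ± 0.07.

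**Figure D4:**
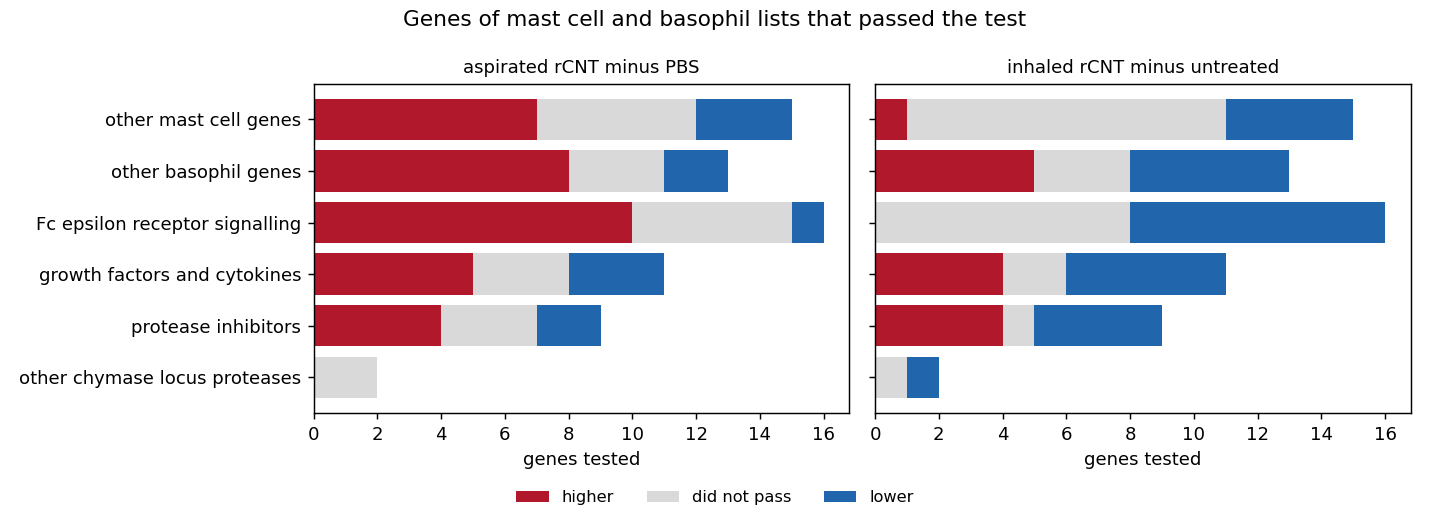
Number of genes tested in 6 lists that were higher (red), lower (blue) or did not pass (grey), for aspirated rCNT minus PBS on the left and inhaled rCNT minus untreated on the right. In the list of Fc epsilon receptor signalling 10 of 16 genes were higher after aspiration and 0 were higher after inhalation, where 8 were lower. Of all genes tested 20.7% were higher and 26.4% lower after aspiration, and 28.4% higher and 32.5% lower after inhalation.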

How the data were processed

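Spots were quantified by the authors with Agilent Feature Extraction 11.0.1.1 on an array design that refers to mm9, per the file headers; the submitters' processing notes name this software and limma. Intensity, as deposited, was taken from the channel that held a sample's own RNA, as median spot and median local background brightness. Deposited flags of other kinds (well above background, saturated, outlier, control) served as filters. The processed intensity was an alternative; per the file headers, the authors' software had already subtracted background and normalised dyes in it. So was the deposited series table, taken as log2: its columns correlated with the own channel's log2 intensity with slopes of 0.9483 to 1.053 and had medians of 6.576 to 6.592, and its background correction is not given in the sources used here.

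Intensities were corrected with normexp (offset 50) over 62976 spots an array, logged and quantile-normalised over 15 channels. Outlier spots (106 to 154 a sample) and control spots were left out, and spots of a probe averaged. Of 55681 probes, the 34271 that 3 or more samples of a group showed well above background were kept, and the brightest probe stood for a gene. Names came from a GRCm38.p6 table (31161 of 32674 spots with a RefSeq accession matched). Its positions gave the chromosomes and the gene order on chromosome 14, and the promoters came from a separate set of the same build. One linear model with group and dye was fitted in limma 3.58.1 (R 4.3.3, lmFit and eBayes, two-sided), with Benjamini-Hochberg adjustment over all genes tested and a threshold of 0.05. Members under the filter were read from the same fit over all probes, adjusted over these. The method was tested on simulated data. For arrays, their number limits the precision, and replicates correlated at 0.9939 to 0.998.

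The members and lists were chosen with earlier results of these data known. Named genes were all members, the 3 smallest p of each list among those that passed in each route, and, for members well above background in at least 8 samples, the 3 most correlated genes. One gene that this rule names is not reported here. Figures were drawn with Python 3.11.15. The closing section gives the alternatives tried.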

Additional observations from a re-analysis of the deposited data

Results flagged for a closer look

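The routes were compared by the test of the difference itself, aspirated rCNT minus PBS less inhaled rCNT minus untreated. Of the 4 members tested 2 passed, Cpa3 and Tpsb2, against 57% of all genes tested in either direction. Cma1 and Mcpt8, which were under the filter, passed in the separate fit over all probes. The value was 0.60 for Cpa3 and 0.63 for Cma1, -1.76 for the brighter Tpsb2 probe, and 0.39 for Mcpt8. The dimmer Tpsb2 probe gave -0.17 and did not pass (limma adjusted p = 0.265 over all probes). The Mcpt8 value is weak: the gene was well above background in 2 samples only, and its call after aspiration was lost without any of 5 single samples. The values of Cpa3 and Cma1 rest on an inhaled rCNT group with 0 of 3 samples well above background. The floor-limited ratio of untreated to inhaled rCNT samples was 1.38-fold for each gene. Each value contains the difference between PBS and untreated samples, in which slide and group cannot be told apart, and for the brighter Tpsb2 probe that difference was 1.69 on the log2 scale. No sample stood apart from its group in the 30 groups of 4 that were checked.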

How the results depend on the processing

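The share of all features that passed is not given for the settings that change the filter, so their counts describe the members only. Counts of the members tested that passed kept within 1.5 times of those given, under the alternatives run, with these exceptions. With no filter on dim probes (9 members tested) 3 passed in aspirated rCNT minus PBS, 4 in the difference of the effects, 2 in PBS minus untreated, 2 in inhaled rCNT minus PBS and 5 in aspirated rCNT minus inhaled rCNT. With only probes well above background in every sample (2 members tested, Mcpt4 and Tpsb2) the counts were 0 in aspirated rCNT minus PBS, 1 in inhaled rCNT minus untreated, 1 in the difference of the effects, and 0 in inhaled rCNT minus PBS and in aspirated rCNT minus inhaled rCNT; fewer members tested is part of this construction. Median centring gave 2 in inhaled rCNT minus PBS, and the series table and array weights each gave 2 in PBS minus untreated; the cause was not tested. Leaving out 1 sample at a time gave 1 to 1 for aspiration, 2 to 2 for inhalation, 2 to 2 for the difference, 1 to 2 for PBS minus untreated (2 without inhaled rCNT replicate 2 or untreated replicate 2), 1 to 1 for inhaled rCNT minus PBS and 2 to 2 for aspirated rCNT minus inhaled rCNT. Whether replicate numbers pair the samples is not settled, with correlations of -0.135 to 0.285 between residuals of same-numbered samples. The same number was the best partner for aspirated rCNT replicates 1 and 4 and inhaled rCNT replicate 3, and not for the others. With the replicate block 1 passed in aspirated rCNT minus inhaled rCNT, while Mcpt2 after aspiration stayed at 0.37 (limma adjusted p = 0.0263).

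Values near 0 changed sign. Cpa3 after aspiration was 0.02 with the processed signal, 0.01 with cyclic loess, 0.04 within Cy5 and -0.05 to 0.04 leaving out 1 sample. Mcpt4 after inhalation was 0.01 with the series table, 0.04 within slide 3 and -0.10 to 0.01 leaving out 1 sample, Ms4a2 was 0.05 with the processed signal and Mcpt8 was 0.07 within slide 2. The size of dim members' changes depends on the background correction: with the processed signal Cpa3 changed by -2.79 and Cma1 by -2.34 after inhalation, and Mcpt2 by 1.52 after aspiration. Mcpt2 after inhalation passed only there (1.13, adjusted p = 0.0487). Fcer1a after inhalation passed under 7 of 28 alternatives, with -0.42 (adjusted p = 0.0431) at a normexp offset of 16. Under median centring 3811 genes were higher and 10196 lower after inhalation, against 7160 and 8212 in the main setting, and the median of all genes was -0.151. After aspiration it gave 4636 higher and 4600 lower, against 5237 and 6676. Array as a random block could not be fitted, since 1 array alone held 2 samples. Comparisons within a slide or dye, and lists without a sample, were chosen after seeing the data.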
